A study of Mus musculus with 7 samples.

Results

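Male mice fed the purified diet NWD2 were compared with male mice fed the purified control diet AIN76A, gene by gene and library by library. The comparison takes the 4 libraries whose labels name these diets, 2 for AIN76A and 2 for NWD2, out of 7 libraries in the series, whose other 3 come from a related diet, NWD1. All mice carried BmicreERT2, a Cre recombinase active only after an inducing drug and driven from the gene Bmi1, and the red fluorescent Rosa26RFP reporter. They ate their diet from weaning until 3 months of age. Crypts of the intestine were dispersed, cells with high red fluorescence that were Epcam+ and CD45- were sorted and collected in bulk, and their RNA was sequenced. The labels give no induction schedule and do not say whether a library holds 1 animal or several, so p-values measure only the spread between these samples. AIN76A libraries carry the i5 sequencing index N503 and NWD2 libraries N504, so an effect of the index and an effect of the diet cannot be told apart. Diet contents are not in the labels; as background, NWD1 is known as a purified diet modelled on Western eating, richer in fat than AIN76A and poorer in methyl donors, calcium and vitamin D3, and NWD2 restores the last of these nutrients, calcium and vitamin D3, to the NWD1 recipe.

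Bmi1 encodes a Polycomb protein, and its Cre reporter has been used to mark slowly dividing cells above the crypt base that can replace damaged stem cells. Descendants of crypt stem cells become absorptive enterocytes or secretory cells. The secretory types are Paneth cells with antimicrobial granules, goblet cells with mucus, enteroendocrine cells that release hormones after a meal, and tuft cells that sense luminal chemicals and parasites. Cells near the middle of the crypt that are marked by Bmi1 reporters are known to include enteroendocrine precursors.

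Markers placed the libraries in the intestinal epithelium but did not single out one cell type. Levels are CPM, the counts of a gene relative to the depth of its library, scaled by TMM, a method that equalises libraries for their RNA composition. Bmi1 had 2.41 and 3.72 CPM in AIN76A replicates 1 and 2 and 3.63 and 2.56 CPM in NWD2 replicates 1 and 2, the order used for all values below. Epcam, the sorted surface protein, had 510.0, 986, 838 and 225 CPM. Ptprc, which encodes the CD45 that the sort selected against, had 3.94, 2.59, 1.17 and 1.48 CPM, a level like that of Bmi1, with both NWD2 libraries below both AIN76A libraries. Lyz1 (lysozyme, Paneth cells), Chga (hormone granules), Trpm5 (tuft cells) and Lct (lactase of enterocytes) were all present, so the sort held several cell types or cells that express genes of several types. Lgr5, the receptor gene of the cycling stem cells between Paneth cells, was at 3.01, 11.6, 12.4 and 6.18 CPM, and Hopx, another reserve stem cell gene, 109, 88.9, 84.3 and 97.6 CPM. The values of Bmi1, Epcam, Lgr5 and Hopx overlapped between the diets. In bulk RNA, fewer cells of a type and less RNA per cell cannot be told apart.

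Total counts were 58419160 and 39657707 in AIN76A and 71331627 and 77959407 in NWD2, and 14626 genes were tested. NWD2 replicate 2 stood apart before any diet was compared. The first principal component of the 4 libraries held 49.3% of the variance and placed NWD2 replicate 2 at 75.34, with the others between -39.58 and -17.68. NWD2 replicates 1 and 2 differed at least 2-fold in 2056 genes, against 970 for the 2 AIN76A libraries and 610 between AIN76A replicate 2 and NWD2 replicate 1. Results that rest on one NWD2 library are named as such below. A further doubt concerns NWD1 replicate 3: it has no TPM column of its own, while a TPM column headed as NWD2 replicate 3 belongs to no labelled sample, so the diet of that library is less certain. It carries N504, enters the estimate of spread and alone decides the values given with the i5 index as a term; edgeR called 0 genes without it too.

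No gene passed the main test. Of 14626 genes, edgeR called 0 (0%) at a Benjamini-Hochberg adjusted p under 0.05, with a smallest adjusted p of 0.831. At an unadjusted p under 0.05 edgeR had 388 genes lower (2.65%) and 172 higher (1.18%) with NWD2. DESeq2, run as an alternative on the same counts, called 50 lower (0.342%) and 2 higher (0.0137%), and limma voom called 0. In simulated counts with 67, 67 and 66 genes shifted by 1, 2 and 3 on the log2 scale, DESeq2 made 31 false calls and edgeR 6. DESeq2 recovered 19.4%, 76.1% and 97% of the shifted genes there. The simulation held no shift of a whole library such as that of NWD2 replicate 2. It therefore does not give the share of false calls in the data. Both NWD2 libraries lay below both AIN76A libraries in 1936 genes (13.2%) and above both in 1926 (13.2%), which became 2568 and 1256 when counts were scaled by library size alone. The 13.2% in each direction is the share to set beside each list's count of genes without overlap. A stricter description, a difference of at least 2-fold on CPM + 0.5 in each of the 4 pairs of an NWD2 and an AIN76A library, held for 68 genes lower (0.465%) and 17 higher (0.116%). Of the 68 lower genes, 17 were on the enteroendocrine list and 10 on the tuft list, while none of the 17 higher genes was on either. DESeq2 had also called 35 of those 68 genes.

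**Figure D1:**
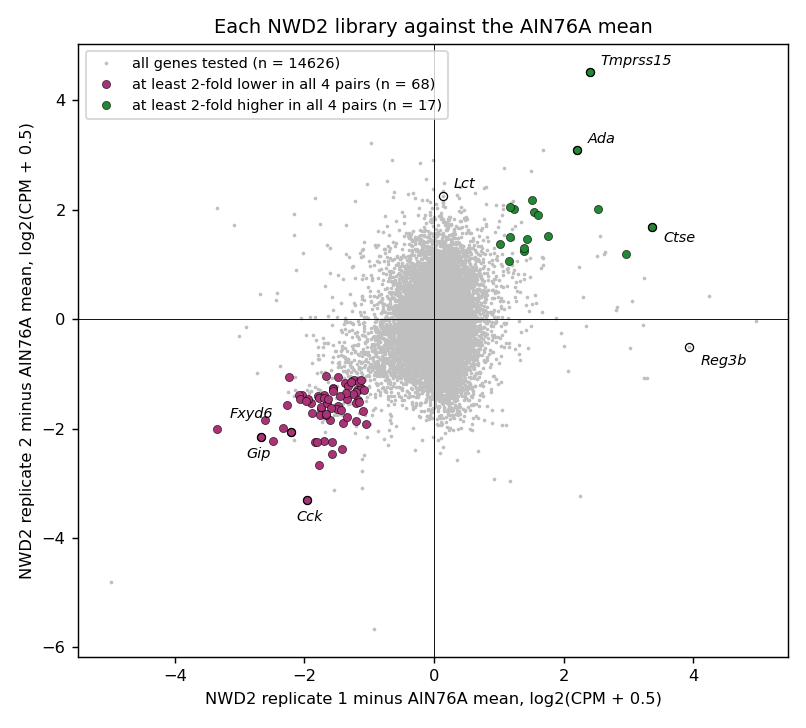
Each point is 1 of 14626 genes; the axes give the difference of NWD2 replicate 1 (x) and replicate 2 (y) from the AIN76A mean on the log2(CPM + 0.5) scale. The 68 genes at least 2-fold lower in all pairs (purple) lie at lower left and the 17 higher (green) at upper right, while Reg3b and Lct differ in 1 NWD2 library each.

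Hormone genes were lower on average with NWD2. All 13 measured hormone genes had negative log2 fold changes, with a median of -1.88 beside -0.03 over all genes tested, where 52.6% of genes were negative and 47.4% positive. In 11 of the 13 both NWD2 libraries lay below both AIN76A libraries. Gip, the incretin of K cells, had 613 and 489 CPM in AIN76A and 85.5 and 123 in NWD2, which is 5.28-fold lower on the means (log2 fold change -2.40, SE 0.40; edgeR adjusted p = 0.831, DESeq2 adjusted p = 2.53e-05). Cck, the gut hormone that contracts the gallbladder, had 94.0 and 104 CPM against 25.0 and 9.59 (-2.52, SE 0.60; DESeq2 adjusted p = 0.00668). Both hormones belong to cells of the upper small intestine. Tac1, the precursor of substance P, had 39.1 and 59.4 CPM against 15.8 and 8.27 (-2.03, SE 0.41). Ucn3, a peptide of the corticotropin-releasing family, had 8.41 and 12.5 CPM against 1.65 and 2.204 (-2.44, SE 0.46). DESeq2 called these 4 hormone genes lower and none of the other 9.

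Neither tool called the other hormones. Sct (secretin, which drives bicarbonate secretion) had 98.2 and 85.2 CPM against 32.7 and 52.8, with a log2 fold change of -1.10 (SE 0.32). Gcg, the precursor of GLP-1, had 78.6 and 45.5 CPM against 37.7 and 13.1. Sst, the inhibitory hormone of D cells, had 56.2 and 41.8 CPM against 25.1 in NWD2 replicate 1 and 0.467 in replicate 2, so the NWD2 libraries lay far apart. Nts (neurotensin) had 61.2 and 29.3 CPM against 9.12 and 15.6, and Ghrl (ghrelin, the hunger hormone) 44.2 and 26.4 against 15.6 and 3.56. None of these 5 overlapped between diets, and none passed either test. On the deposited TPM scale, which divides by gene length and so allows genes to be compared, Gip was the most abundant hormone in AIN76A, at 1424 and 1428 TPM, and remained so in NWD2 at 237 and 292 TPM, ahead of Sct at 117 and 161 TPM.

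The cellular machinery around the hormones was lower too. All 16 genes of granules and prohormone processing were negative, with a median of -1.58, and 14 did not overlap between diets. Chgb and Chga encode the chromogranins that pack hormone granules; Chgb had 529 and 883 CPM against 176 and 249 (-1.73, SE 0.37), and Chga 379 and 533 against 105 and 172 (-1.72, SE 0.38). DESeq2 called both lower (adjusted p = 0.00762 and 0.0142). It also called Scg2, a secretogranin (25.9 and 25.6 CPM against 4.95 and 8.35), Resp18 (7.94 and 9.26 against 2.53 and 2.45), Ptprn2, a granule membrane protein (8.52 and 7.35 against 2.79 and 2.78), Scg5, the partner of the prohormone convertase PC2 (7.31 and 7.06 against 2.12 and 2.65), and Cpe, the carboxypeptidase that trims prohormones (12.3 and 36.6 against 6.95 and 2.01). In Resp18, Ptprn2 and Scg5 the 2 libraries of each diet lay close together and the diets far apart.

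Genes of exocytosis and excitability were negative in 21 of 22, with a median of -1.18 and 17 members wholly lower. Fxyd6, a regulator of the sodium pump, had the smallest p of all genes by edgeR: it had 11.2 and 13.6 CPM against 2.27 and 2.57 (-2.36, SE 0.35; edgeR adjusted p = 0.831, DESeq2 adjusted p = 3.17e-06). Rab3b and Rab3c encode small GTPases of secretory vesicles. Rab3b had 4.64 and 4.35 CPM against 0.893 and 0.547, and Rab3c 6.25 and 7.35 against 1.58 and 1.03. Syt13, a synaptotagmin, had 4.72 and 9.46 CPM against 1.81 and 2.11. Other vesicle genes overlapped or lay close: Rab3a, the best-known member of that GTPase family, had 8.89 and 6.75 CPM against 9.27 and 4.36, and Rph3al 15.8 and 13.5 against 12.2 and 10.6.

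Transcription factor genes of the lineage were negative in 17 of 18, with a median of -1.503, and 14 did not overlap. Lmx1a, a factor of serotonin-producing cells, had 8.64 and 15.6 CPM against 3.05 and 3.99 and was the only one called lower by DESeq2 (adjusted p = 0.0221). Neurod1, which drives enteroendocrine differentiation, had 7.06 and 12.5 CPM against 3.39 and 3.88, and Rfx6, needed for Gip expression, 3.26 and 6.07 against 1.69 and 1.40. Neurog3, the factor that starts the lineage and is named here after its values were seen, had 1.49 and 1.31 CPM against 2.57 and 0.177, so the NWD2 libraries lay on opposite sides of AIN76A. Pdx1, a factor of the duodenum and pancreas, had 17.9 and 14.5 CPM against 14.3 and 19.4.

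Nutrient and hormone receptor genes of enteroendocrine cells were negative in all 10 genes measured, with a median of -1.78. Trpa1, an irritant channel of serotonin-producing cells, had 14.4 and 41.1 CPM against 4.74 and 9.44. Gpr119, a lipid receptor that promotes GLP-1 release, had 0.774 and 1.09 CPM against 0.0962 and 0.0483, and DESeq2 called both genes lower. The short-chain fatty acid receptor Ffar2 had 13.8 and 10.7 CPM against 3.76 and 6.90. The serotonin genes were unlike the rest of the list mainly in NWD2 replicate 2. Their median was -0.27 and none of the 5 was free of overlap. NWD2 replicate 1 lay below both AIN76A libraries in 5 of them and replicate 2 in 0. The list medians of the difference from the AIN76A mean were -0.672 in replicate 1 and 0.05 in replicate 2. Tph1, the enzyme that commits tryptophan to serotonin, had 29.3 and 55.0 CPM against 12.6 and 29.5, and the vesicular transporter Slc18a1 had 32.7 and 50.1 against 31.4 and 51.6. Ddc, the next enzyme, had 412 and 472 CPM against 276 and 571, but enterocytes express it as well.

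Over the whole enteroendocrine list, 81 of 84 measured genes were negative and 65 lay wholly below AIN76A, with a median of -1.52; 18 were called lower by DESeq2 and 0 by edgeR. Of 94 listed genes, 9 were left out for low counts and Mln was not analysed here. Summed over the list, the level was 3072 and 3676 CPM with AIN76A, against 1207 and 1799 with NWD2. The same sums over the 36 absorptive enterocyte markers were 54570 and 66047 CPM against 62885 and 126100, so in NWD2 replicate 1 the enteroendocrine sum was low while the enterocyte sum lay within the AIN76A range. The part of a shift towards enterocytes in replicate 2 was not tested. The median was between -1.61 and -1.19 when any single library was left out.

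**Figure D2:**
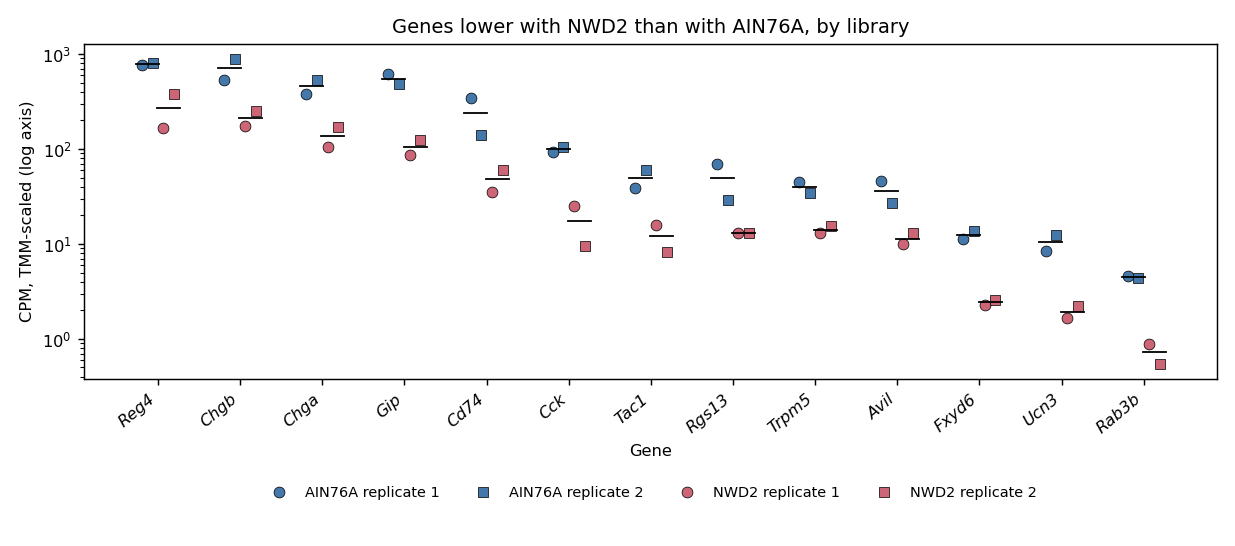
TMM-scaled CPM on a log axis for 13 genes at least 2-fold lower with NWD2 in all pairs, with each library as a point and diet means as bars. In every gene shown both NWD2 points lie below both AIN76A points; Gip lies at 613 and 489 CPM in AIN76A and 85.5 and 123 in NWD2.

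Since Gip, Chga and Chgb were lower together, their promoters are shown, as the 250 bases before the RefSeq start on build GRCm38.p6, written 5′ to 3′ on the gene's own strand. The region of Gip is chr11:96024295-96024544 (+), that of Chga chr12:102554691-102554940 (+) and that of Chgb chr2:132781392-132781641 (+). Capitals mark matches, on either strand, to the cAMP response element TGACGTNA and the E-box CAGNTG, which is bound by basic helix-loop-helix factors. No match of one overlaps a match of the other.
Gip: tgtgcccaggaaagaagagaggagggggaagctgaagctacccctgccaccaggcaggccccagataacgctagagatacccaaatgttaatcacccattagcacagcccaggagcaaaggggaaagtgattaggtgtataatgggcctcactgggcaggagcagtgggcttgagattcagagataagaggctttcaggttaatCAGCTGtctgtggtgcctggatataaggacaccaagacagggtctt
Chga: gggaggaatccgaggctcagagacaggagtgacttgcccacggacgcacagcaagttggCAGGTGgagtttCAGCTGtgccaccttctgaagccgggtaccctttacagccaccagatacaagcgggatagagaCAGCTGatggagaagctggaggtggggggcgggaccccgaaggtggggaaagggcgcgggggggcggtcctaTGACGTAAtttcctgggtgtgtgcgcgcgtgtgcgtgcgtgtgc
Chgb: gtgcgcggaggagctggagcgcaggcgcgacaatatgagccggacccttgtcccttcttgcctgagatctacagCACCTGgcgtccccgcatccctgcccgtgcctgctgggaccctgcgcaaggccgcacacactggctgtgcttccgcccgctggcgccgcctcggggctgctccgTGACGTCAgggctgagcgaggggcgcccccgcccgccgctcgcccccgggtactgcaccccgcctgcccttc
The Gip window has 1 E-box, 46 to 41 bases before the start. The Chga window has TGACGTAA 44 to 37 bases before the start and 3 E-boxes, and the Chgb window has TGACGTCA 72 to 65 bases before it and 1 E-box. Among all 32851 promoter windows of this length, 2.52% hold the cAMP response element letters and 44.8% the E-box letters. Among the 62 measured enteroendocrine genes with a window, 8 hold the first (12.9%) and 35 the second (56.5%). The list has 1 window per gene and measured genes only. The full set was not limited in either way, so these shares come from unlike sets. A match describes the letters in the window, not a site in use.

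Tuft cell genes were lower with NWD2 in 38 of 42 measured members, with a median of -1.59, and 32 lay wholly below AIN76A. Of 45 listed genes, 3 had too few counts. DESeq2 called 3 of them lower and edgeR 0. Trpm5, the channel that closes the taste signalling cascade, had 44.5 and 34.5 CPM against 12.96 and 15.4 (-1.48, SE 0.38). Dclk1, the kinase used to recognise tuft cells, had 42.5 and 33.8 CPM against 11.4 and 19.2 (-1.32, SE 0.42). Rgs2 and Rgs13 encode brakes on G protein signalling. Rgs2 had 54.9 and 32.0 CPM against 15.3 and 12.9 (-1.63, SE 0.38; DESeq2 adjusted p = 0.0315), and Rgs13 69.9 and 28.8 against 12.9 and 13.05.

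Named effector and structural genes of tuft cells were also lower in both NWD2 libraries. Avil, an actin-binding protein of the tuft, had 46.1 and 26.9 CPM against 9.87 and 12.9. Alox5, the enzyme that begins leukotriene synthesis, had 27.7 and 13.9 CPM against 5.54 and 5.97, and Spib, a transcription factor, 31.5 and 18.7 against 7.32 and 6.95. Pou2f3, the factor on which the tuft lineage depends, differed less, at 5.92 and 4.498 CPM against 3.43 and 2.27 (-0.87, SE 0.51). Members that enterocytes also express were not lower in both libraries: Vil1 (villin) had 1725 and 1976 CPM against 1560.5 and 3270 CPM. AIN76A replicate 1 had the highest level of most tuft genes named here, and without it the median of the list was -0.97.

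Other genes in the strictest set lie on no list. Of the 68 genes lower in all pairs, 37 are on none of the 25 lists. Reg4, a secreted lectin that marks enteroendocrine and deep secretory cells, was the most abundant by CPM, at 770.1 and 807 CPM against 167 and 376 (-1.54, SE 0.42; DESeq2 adjusted p = 0.0804). Rbp4, the retinol carrier, had 10.1 and 11.4 CPM against 1.51 and 1.88 (-2.66, SE 0.50), and Scgn, a calcium-binding protein of endocrine cells, 8.43 and 8.75 against 2.89 and 1.25. Prnp, the prion protein gene, is outside the set but was called lower by DESeq2, with 17.1 and 29.7 CPM against 5.98 and 9.22. DESeq2 also called Rbp4, Scgn, Bambi (12.7 and 15.8 CPM against 6.02 and 4.76) and Amigo2 (3.33 and 9.65 against 1.32 and 0.483). Bambi encodes a decoy receptor of TGF-beta signalling. Vim, which encodes the filament protein vimentin and stands on the stromal list, had 5.71 and 9.31 CPM against 2.12 and 1.14; 13 of the 20 stromal, endothelial and neural genes had too few counts to test.

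Of 26 Paneth cell genes, 23 were lower with NWD2; the median was -0.90, and 17 lay wholly below AIN76A and 1 above. Neither edgeR nor DESeq2 called any, and 9 had an edgeR unadjusted p under 0.05. Lyz1 had 13564 and 10406 CPM against 4122 and 7978 (-0.99, SE 0.44), and Defa24, an alpha-defensin with near-identical copies whose counts are therefore uncertain, 16930.5 and 11008 against 4167 and 8689.9 CPM. NWD2 replicate 1 was the lower of the NWD2 libraries in both, and without NWD2 replicate 2 the median of the list was -1.42. The antimicrobial lectin genes Reg3b and Reg3g went the other way in that same library. Reg3b had 1657 and 1396 CPM in AIN76A, 23409.5 in NWD2 replicate 1 and 1072 in replicate 2, and Reg3g had 2105 and 1632, then 15031 and 1285 CPM. Enterocytes make both lectins too, and the values overlapped between diets.

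Goblet cell genes were negative in 20 of 27, with a median of -0.73, and 14 lay wholly below AIN76A and 1 above. Neither tool called any. At an edgeR unadjusted p under 0.05, 11 were lower and 1 higher, beside 2.65% and 1.18% over all genes tested. Muc2, the main gel-forming mucin, had 708 and 434 CPM against 356 and 344, and Tff3, the trefoil peptide, 4180 and 1387 CPM against 1280 and 1225. For both genes AIN76A replicate 1 stood above the other 3 libraries, and without it the median of the list was -0.16. The secretory fate factors Atoh1 (51.0 and 28.9 CPM against 22.3 and 22.9) and Spdef (43.7 and 19.2 against 14.2 and 18.2) were likewise highest in AIN76A replicate 1.

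Genes of MHC class II, which present antigen to T cells, were lower with NWD2 in 7 of 7 cases (median -1.74), and 6 did not overlap. Cd74, the invariant chain, had 343 and 140 CPM against 35.4 and 60.4, and H2-Aa 71.4 and 32.0 against 4.23 and 11.5. The class II regulator Ciita, chosen after its values were seen, had 2.23 and 2.97 CPM against 2.102 and 2.56. Neither edgeR nor DESeq2 called any member, and 3 had an edgeR unadjusted p under 0.05. Without AIN76A replicate 1 the median was -1.05. The summed level was 680.2 and 296 CPM against 91.1 and 148 CPM.

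Leukocyte genes gave mixed values at low levels. Of 27 listed genes, 5 had too few counts to test. Of 21 measured members, 17 were positive, with a median of 2.22, and 16 lay wholly above AIN76A. A gene near 0 in AIN76A passes the count filter only through libraries where it is higher. The direction of such members is therefore fixed in part by the filter, and these counts and the median are no separate support for a rise. Gzmb, a granzyme of cytotoxic cells, had 0.198 and 0.290 CPM against 1.76 and 2.27, and Ccl5, a T cell chemokine, 0.342 and 0.314 against 1.68 and 1.46. Cd7, of T and natural killer cells, had 0.216 and 0.193 CPM against 0.934 and 1.32. Among the positive members the highest level was that of Gzma, at 3.97 CPM in NWD2 replicate 2. The 4 members wholly below AIN76A included Ptprc, Rac2 (19.7 and 9.41 CPM against 5.61 and 4.65) and Cd74, which is also on the class II list. Because of Cd74 the summed level ran opposite to the median, at 372 and 158 CPM against 55.5 and 86.9. Neither edgeR nor DESeq2 called any member; 2 lower and 7 higher members had an edgeR unadjusted p under 0.05. With the i5 index as a term, which rests on NWD1 replicate 3 alone, the median was -0.28.

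**Figure D3:**
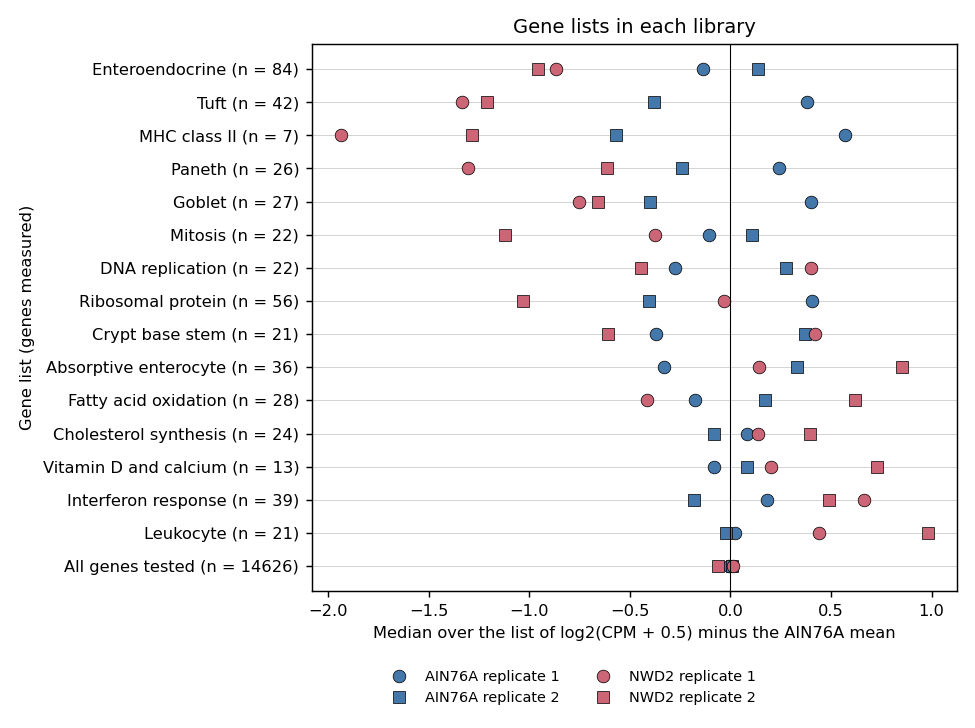
For each gene list (rows, with the number of genes measured), points give each library's median over the list of log2(CPM + 0.5) minus the AIN76A mean. Both NWD2 points lie left of both AIN76A points for enteroendocrine, tuft, MHC class II, Paneth, goblet and mitosis genes. Ribosomal protein and stem cell genes set the NWD2 libraries apart from each other.

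Absorptive enterocyte genes were higher mainly in NWD2 replicate 2. Of 36 genes, 34 were positive with a median of 0.48, but 9 lay wholly above AIN76A, beside 13.2% over all genes tested. NWD2 replicate 2 exceeded both AIN76A libraries in 31 genes and NWD2 replicate 1 in 10. Lct had 498 and 1007 CPM against 776 and 3384, and Apob, the scaffold of chylomicrons, 1248 and 2978 against 2463 and 9323 CPM. Apoa1, an apolipoprotein, was higher in both, at 11091 and 9102 CPM against 15529 and 20087 (0.82, SE 0.37), as was the glucose transporter Slc5a1, at 5555 and 4655 against 6597 and 6874 CPM. Neither edgeR nor DESeq2 called any enterocyte gene, and 0 had an edgeR unadjusted p under 0.05. Without NWD2 replicate 2 the median was 0.12, and without NWD2 replicate 1 it was 0.76.

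Replication genes separated the NWD2 libraries from each other, while most mitosis genes were lower in both. Mitosis genes were negative in all 22, with a median of -0.74 and 16 wholly below AIN76A. Cdk1, the kinase that starts mitosis, had 58.8 and 52.8 CPM against 40.2 and 19.6, and Ube2c, which marks mitotic proteins for degradation, 113 and 92.3 against 72.6 and 34.2. Replication genes were not lower as a group: their median was -0.03, with NWD2 replicate 1 above both AIN76A libraries in 14 of 22 and replicate 2 below both in 13. Mcm6, part of the replicative helicase, had 31.9 and 72.3 CPM against 74.8 and 31.9. Crypt base stem cell genes were split likewise: Olfm4 had 314 and 726 CPM against 1024 and 410.4, and Smoc2 25.1 and 70.1 against 91.4 and 10.6. Ribosomal protein genes were negative in all 56, with a median of -0.52, yet none was free of overlap, since NWD2 replicate 2 lay below both AIN76A libraries in 56 and replicate 1 in 0. Without NWD2 replicate 2 the medians were -0.39 for mitosis and -0.08 for ribosomal proteins, and without NWD2 replicate 1 they were -1.20 and -1.14; without AIN76A replicate 1 the ribosomal median was -0.04, and without AIN76A replicate 2 it was -0.85. Neither edgeR nor DESeq2 called any of these genes. At an edgeR unadjusted p under 0.05, 2 mitosis genes were lower and 1 replication gene was higher.

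Of the 17 genes at least 2-fold higher in all pairs, 3 are on the leukocyte list, 2 each on the interferon and circadian lists, 1 each on the vitamin D and regional lists, and 8 on none. Cyp3a11, a cytochrome that oxidises drugs, bile acids and vitamin D metabolites and is a known target of nuclear receptors, had 319.5 and 392 CPM against 834 and 1421 (1.66, SE 0.47; edgeR adjusted p = 0.955, DESeq2 adjusted p = 0.0854). Its relative Cyp3a13 had 1009 and 953 CPM against 1775 and 2034 (0.96, SE 0.36). Tmprss15 encodes enteropeptidase, the brush border protease of the duodenum that activates trypsinogen. It had 2.05 and 8.63 CPM against 25.0 and 110.2, a log2 fold change of 3.67 (SE 0.94), with the libraries of each diet far apart, and 2.24 without NWD2 replicate 2. Ada, adenosine deaminase, also a gene of the upper small intestine, had 45.8 and 87.1 CPM against 295 and 543 (2.66, SE 1.02), and Slc28a2, a nucleoside transporter, 7.71 and 7.25 against 61.9 and 17.6. Cybrd1, the duodenal iron reductase, had 5.96 and 4.45 CPM against 15.7 and 25.1. Of 7 measured genes of the proximal intestine, 6 were positive, with a median of 0.43. NWD2 replicate 2 exceeded both AIN76A libraries in 6 of them and replicate 1 in 2, so that Cybrd1 and Onecut2 lay wholly above AIN76A. Gata4, the negative member, had 42.1 and 85.1 CPM against 81.2 and 29.2. Of 7 measured genes of the distal intestine, 4 were negative and 3 positive, with a median of -0.20 and 1 wholly below AIN76A. A shift along the intestine was not tested.

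The promoter of Cyp3a11 is shown as the gene of highest CPM in the set 2-fold higher in all pairs. Its window is chr5:145879855-145880104 on GRCm38.p6 (-). It was searched on both strands for AGNTCA, a pattern with 1 open letter that is looser than the core letters nuclear receptors bind. Capitals mark the matches, none of which overlap.
Cyp3a11: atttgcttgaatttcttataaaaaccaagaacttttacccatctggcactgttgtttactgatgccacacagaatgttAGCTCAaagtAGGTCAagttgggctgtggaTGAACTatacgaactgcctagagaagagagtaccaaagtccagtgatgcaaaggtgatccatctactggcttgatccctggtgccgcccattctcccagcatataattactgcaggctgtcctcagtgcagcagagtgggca
It holds 3 matches, which begin 172, 162 and 142 bases before the start, and 41.3% of all 32851 windows hold at least 1 match.

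Aldh4a1, a mitochondrial enzyme of proline breakdown, had 8.73 and 11.9 CPM against 61.2 and 42.7 (2.33, SE 0.73), and Ces1d, a carboxylesterase, 53.8 and 27.6 against 113 and 152. Per2, a core repressor of the clock, had 3.29 and 3.70 CPM against 12.96 and 10.9. The circadian list as a whole had 13 of 20 positive and a median of 0.27. Of its genes, 6 lay wholly above AIN76A and 2 below, beside 13.2% in each direction over all genes tested. The labels give no time of day. Ppm1j, a phosphatase, had 22.9 and 20.7 CPM against 51.5 and 39.5. Cyp27a1, a sterol hydroxylase, had 18.2 and 21.9 CPM against 95.9 and 38.8. DESeq2 called 2 genes higher, the predicted gene Gm11775 (1.73 and 2.201 CPM against 5.06 and 9.70) and a gene deposited as Hemt1, with 0 counts in both AIN76A libraries and nearly all its NWD2 reads in replicate 1.

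Several of these genes were not high with NWD2 alone. In the NWD1 libraries, replicates 1 to 3, Ada had 56.4, 552 and 65.9 CPM, Per2 5.69, 20.8 and 6.24, and Aldh4a1 6.46, 34.1 and 48.5 CPM. Gip, in contrast, had 631, 326 and 378 CPM there and Fxyd6 12.4, 12.001 and 8.30, all above both NWD2 libraries. Not every lower gene did so: Scg2 had 19.8, 8.09 and 14.9 CPM with NWD1, and 8.09 lies below the 8.35 of NWD2 replicate 2. Summed over the enteroendocrine list, the NWD1 libraries had 3218, 3236 and 2898 CPM, above both NWD2 libraries (1207 and 1799). The MHC class II sums were 76.6, 174 and 605 CPM with NWD1, against 91.1 and 148 with NWD2.

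**Figure D4:**
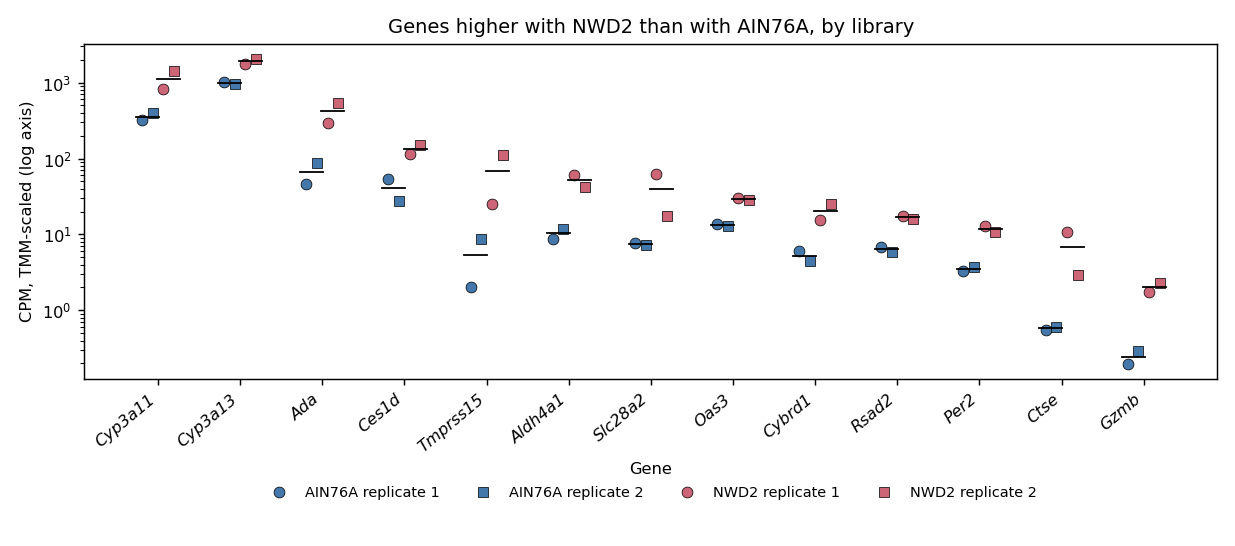
TMM-scaled CPM on a log axis for 13 genes higher with NWD2, with each library as a point and diet means as bars. Oas3 and Rsad2 have tight pairs, as in Oas3 at 13.9 and 12.9 against 30.4 and 28.6 CPM, while the NWD2 points of Tmprss15 and Slc28a2 lie far apart.

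Genes tied to calcium and vitamin D had mixed values. Of 13 measured vitamin D and calcium genes, 10 were positive, with a median of 0.49. Wholly above AIN76A lay 4 and wholly below it 2, beside 13.2% in each direction over all genes tested. Vdr, the vitamin D receptor, had 397 and 573 CPM against 503 and 719.6, and S100g, the calcium-binding protein calbindin-D9k that vitamin D induces, 104 and 39.2 against 29.5 and 111. Slc30a10, a manganese exporter induced by vitamin D, had 16.5 and 18.7 CPM against 22.1 and 44.1. Trpv6, the apical calcium channel, was near 0 in all 4 libraries, at most 0.151 CPM, and Cyp24a1, the enzyme that degrades active vitamin D, had too few counts to test. Without NWD2 replicate 2 the median of the list was 0.13. Cyp3a11 and Cyp3a13 had an edgeR unadjusted p under 0.05, and neither edgeR nor DESeq2 called any member.

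Genes of lipid and one-carbon metabolism had list medians between -0.02 and 0.27. Cholesterol synthesis genes were positive in 21 of 24, with a median of 0.27 and 11 wholly above AIN76A; Sc5d, a late enzyme of the pathway, had 208 and 197 CPM against 259 and 362. Without NWD2 replicate 2 that median was 0.13. Fatty acid oxidation genes had a median of 0.19 and 0 of 28 free of overlap, since NWD2 replicate 1 lay below both AIN76A libraries in 19 and replicate 2 above both in 21. The list medians of the difference from the AIN76A mean were -0.41 in replicate 1 and 0.62 in replicate 2. In one-carbon metabolism 15 of 29 genes were negative, with a median of -0.02, and the proton-coupled folate transporter Slc46a1 had 391 and 447 CPM against 514 and 1221. Tet1, a DNA demethylase, was called lower by DESeq2 (adjusted p = 0.0478), but its 7.89 CPM in AIN76A replicate 1 stood against 0.556, 0.412 and 0.338 in the other 3 libraries.

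Interferon response genes were higher in 37 of 39, with a median of 0.67, and 20 lay wholly above AIN76A and 0 below. Oas3, an antiviral sensor of double-stranded RNA, had 13.9 and 12.9 CPM against 30.4 and 28.6 (1.14, SE 0.70), and Rsad2 (viperin) 6.79 and 5.88 against 17.4 and 16.2. Irf7, the factor that amplifies the response, had 148 and 103 CPM against 213 and 186. Oas3 and Rsad2 were the 2 members that were at least 2-fold higher in all pairs. Neither edgeR nor DESeq2 called any, 3 had an edgeR unadjusted p under 0.05, and the median was 0.44 without AIN76A replicate 2 and 0.06 with the i5 term.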

How the data were processed

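RNA of sorted cells was measured in 7 libraries, of which the 4 of AIN76A and NWD2 are described. Per the labels' protocols, SMART-Seq v4 and Nextera XT were used, which do not mark strand. The authors deposited whole-number counts for 37310 genes and TPM values; per the submitters' processing notes the tools were STAR 2.4.2a, HTSeq 0.6.1 and edgeR, with build mm9. One TPM column (1) matches no sample title and was not used.

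Counts were tested with the edgeR 4.0.16 quasi-likelihood F test (R 4.3.3; TMM, filterByExpr, robust), over all 7 libraries with diet as the only term, leaving 4 residual degrees of freedom. The biological coefficient of variation was 0.363. DESeq2 1.42.0 and limma 3.58.1 voom were alternatives. An exact permutation test of 2 against 2 libraries cannot go below p = 0.333. SE is that of the log2 fold change. Deposited TPM entered limma as log2(TPM + 1) only as an alternative. In simulated counts of this comparison over 14313 genes, edgeR recovered 4.48% of the genes shifted by 1 on the log2 scale, 52.2% of those shifted by 2 and 89.4% of those shifted by 3, with 6 false calls; DESeq2 recovered 19.4%, 76.1% and 97%, with 31 false calls.

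The members and the 25 gene lists were chosen with earlier results of these data known. Of 733 list symbols 728 had a row and 681 were measured. Genes named are the 12 of smallest edgeR p in each direction whose average log2 CPM reached 1, those called by DESeq2, up to 4 members per list role of highest CPM, the 10 of highest CPM in each direction in the 2-fold set, and a fixed marker set; further members of the 2-fold set or the lists were named after their values were seen. Some genes that the rule names are not reported here. Promoters come from RefSeq tables on GRCm38.p6, and no other coordinates are given. Alternatives were scaling, filter, pseudocount, tool, only 4 libraries, a replicate block, an i5 term, and each library left out.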

Additional observations from a re-analysis of the deposited data

How the results depend on the processing

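The count of 0 genes called by edgeR became 52 with DESeq2, 190 with no filter beyond 1 count, 6 with only the 4 libraries (Cck and Rbp4 lower, Ada, Aldh4a1, Ctse and Itgb2 higher) and 1 with an i5 term; it stayed 0 without any single library. With a replicate block it was 1 over 7 libraries (Tmprss15) and 75 over the 4, where 1 residual degree of freedom is left. The labels share numbers only and do not say that a number marks a shared batch, so the block was not used in the main fit. Same-numbered AIN76A and NWD2 libraries correlated at 0.0636 in their deviations. With 2 libraries per diet the opposite pairing gives -0.0636 by construction, so this value cannot decide whether the libraries are paired. The block moved none of the 12 list medians tried across 0. Library size scaling moved the median of all genes to -0.15.

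Genes 2-fold lower in all pairs numbered 34 with a pseudocount of 1 and 155 with 0.1, and 170 to 501 without single libraries; those higher numbered 60 with 0.1, and 48 to 371 without single libraries. Fewer pairs have to agree there. Non-overlapping genes higher numbered 1256 with library size scaling and 3147 with no filter. In an alternative added after seeing the data, leaving out an NWD2 library gave 3817 to 5752 lower and 4120 to 5092 higher.

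With the i5 term, which rests on NWD1 replicate 3, list medians were -1.226 (enteroendocrine), -1.2 (goblet), -0.123 (mitosis), -0.275 (leukocyte, reversed), 0.064 (interferon), -3.804 (MHC class II), 0.619 (cholesterol), 0.062 (vitamin D and calcium) and 0.097 (ribosomal, reversed). The cause was not tested. On log2(TPM + 1), which shrinks low genes, they were -0.57 (enteroendocrine), -0.992 (tuft), 0.393 (leukocyte), 0.453 (interferon) and 0.161 (vitamin D and calcium). Without single libraries the medians ranged from -1.605 to -1.194 (enteroendocrine), -1.98 to -0.967 (tuft), -1.42 to -0.696 (Paneth), -1.008 to -0.159 (goblet), 0.123 to 0.757 (enterocyte), -1.198 to -0.388 (mitosis), 1.55 to 2.313 (leukocyte), 0.44 to 0.957 (interferon), -2.19 to -1.054 (MHC class II), 0.134 to 0.354 (cholesterol), 0.134 to 0.632 (vitamin D and calcium) and -1.136 to -0.036 (ribosomal).

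Signs turned for Vdr (-0.035 with the i5 term) and Hopx (0.38 with it, -0.253 to 0.033 without single libraries). They also turned for Bmi1 (-0.788 with the i5 term, -0.033 with the replicate block over 7 libraries, -0.301 to 0.367 without single libraries, -0.266 without AIN76A replicate 1). Epcam and Lgr5 turned with large shifts when single libraries were left out. Epcam was -0.493 in the main fit, -1.77 to 0.167 without single libraries and 0.069 without AIN76A replicate 2. Lgr5 was 0.349 in the main fit and -0.319 to 1.633 without single libraries. With 2 libraries per diet, changes near 2-fold were rarely recovered in simulation, and genes of a few counts, such as Gpr119, rest on little depth.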

Other observations

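Hspa1b, a stress-induced chaperone gene named after its values were seen, had 8.93 and 4.18 CPM in AIN76A replicates 1 and 2, 64.3 CPM in NWD2 replicate 1 and 2.67 CPM in NWD2 replicate 2, the same library order as Reg3b. Itgb2, a leukocyte integrin gene, had 0 counts in both AIN76A libraries and 33 and 45 counts in NWD2.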
